A study of Saccharomyces cerevisiae with 36 samples.

Results

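Described here are 10 genes through which the yeast Saccharomyces cerevisiae matches its metabolism to its carbon source. They are the activator genes CAT8, SIP4, ADR1 and RDS2, the repressor genes MIG1, MIG2, MIG3 and NRG1, the kinase gene SNF1 and the phosphatase subunit gene REG1. They were taken by common name from the 7122 gene lines of each of the 3 deposited count tables, and all 10 passed the filter on low counts that left 6612 genes for testing. RNA was sequenced from chemostats, culture vessels in which a steady feed sets growth and 1 supplied nutrient, or a pair of them, is scarce. The 36 libraries form 12 groups of 3 cultures, stated to be biological triplicates, from 3 sets at 4 limitations. The MC tagged set grew HAP1-TAP in MC vessels, a label taken here to mean mini-chemostat because of the series title. HAP1-TAP is CEN.PK 113-5D with a CBP-ProtA tag fused to the end of the haem-responsive activator Hap1p. The DASGIP tagged set grew the same strain in a 1 L DASGIP vessel, and the MC untagged set grew CEN.PK 113-5D itself in MC vessels. In N-lim cultures nitrogen was scarce and the feed held 6% glucose, and in Et-lim cultures the scarce nutrient was 0.5% ethanol. OxGlu-lim cultures were short of both oxygen and sugar on a feed of 1% glucose, and Glu-lim cultures were short of sugar on 0.75% glucose, all as weight per volume. Each set is 1 strain in 1 kind of vessel, and N-lim cultures differed from Glu-lim cultures both in the scarce nutrient and in the glucose supplied, so those cannot be told apart. The same holds for OxGlu-lim cultures, which were fed 1% against 0.75% glucose. Et-lim cultures differed from Glu-lim cultures in the carbon source itself.

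When glucose is ample, Mig1p, a zinc finger protein, sits at GC-rich promoter sites with the corepressor Cyc8p-Tup1p and holds genes for other carbon sources silent. When glucose runs short, the Snf1p kinase, the yeast form of AMP-activated kinase, phosphorylates Mig1p, which leaves the nucleus, and it also switches on the activators. Reg1p brings the phosphatase Glc7p to Snf1p and opposes the kinase. Mig2p and Mig3p are relatives of Mig1p, and Nrg1p is a further zinc finger repressor. Cat8p, Sip4p and Rds2p are zinc cluster activators of gluconeogenic genes, and Adr1p activates genes for ethanol, glycerol and fatty acid use.

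A library held between 10.7 and 22.5 M counts (M for 1000000; median 16.7 M; CPM below is a count per 1000000 of the scaled library size), and a member had between 35 and 11049 counts in a library. Mitochondrially encoded genes took 9.20% to 16.5% of the counts under N-lim, 31.5% to 46.6% under Et-lim, 16.9% to 25.3% under OxGlu-lim and 25.2% to 38.6% under Glu-lim. With library sizes taken from nuclear reading frames alone, all 30 member calls of the 3 limitations against Glu-lim, averaged over sets, were the same. These are whole cultures, so fewer cells of a kind and less RNA per cell cannot be told apart. The genes of MATa haploid cells had a summed 1678 to 3098 CPM under N-lim, 493 to 645 CPM under Et-lim, 836 to 1159 CPM under OxGlu-lim and 301 to 456 CPM under Glu-lim. Against Glu-lim all 7 of the list were higher under N-lim and OxGlu-lim and 6 under Et-lim (34.3%, 32.9% and 30.6% of all genes). The strain is haploid, so these sums do not give shares of cells of different mating types. The part of these genes in the results below was not tested. The 5 genes of meiotic cells summed to at most 63.3 CPM in any library, and the 4 of MATalpha cells to at most 161 CPM. Levels of HAP1 overlapped between the sets (141 to 415 CPM in MC tagged, 139.9 to 389.9 CPM in DASGIP tagged and 144 to 420.0 CPM in MC untagged libraries). A tag at the end of the gene leaves its count in place, so HAP1 checks no label.

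The promoters of CAT8, SIP4, MIG1, MIG2, MIG3 and NRG1 are shown because each held a match to the site of a repressor of glucose-responsive genes, and the windows of the other 4 members held none. Each is the 300 bases before the start codon, read 5′ to 3′ on the strand of the gene in RefSeq's R64 genome of strain S288C, which can differ from CEN.PK. Capitals mark matches on either strand to the Mig1p core (CCGGGG or CTGGGG, and likewise GCGGGG or GTGGGG) or to CGGANNA, the site of Rgt1p, the repressor of hexose transporter genes.
CAT8: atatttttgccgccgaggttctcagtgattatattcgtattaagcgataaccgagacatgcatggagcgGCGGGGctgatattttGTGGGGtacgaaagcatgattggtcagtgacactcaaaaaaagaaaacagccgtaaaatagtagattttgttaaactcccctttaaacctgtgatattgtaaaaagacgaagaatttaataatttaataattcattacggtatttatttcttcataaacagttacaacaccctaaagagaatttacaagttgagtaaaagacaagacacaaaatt
SIP4: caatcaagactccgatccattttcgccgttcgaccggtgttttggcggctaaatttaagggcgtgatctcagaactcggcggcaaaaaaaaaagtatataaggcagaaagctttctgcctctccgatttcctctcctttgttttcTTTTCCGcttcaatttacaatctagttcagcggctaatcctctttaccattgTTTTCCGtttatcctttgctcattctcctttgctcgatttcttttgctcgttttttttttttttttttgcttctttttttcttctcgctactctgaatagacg
MIG1: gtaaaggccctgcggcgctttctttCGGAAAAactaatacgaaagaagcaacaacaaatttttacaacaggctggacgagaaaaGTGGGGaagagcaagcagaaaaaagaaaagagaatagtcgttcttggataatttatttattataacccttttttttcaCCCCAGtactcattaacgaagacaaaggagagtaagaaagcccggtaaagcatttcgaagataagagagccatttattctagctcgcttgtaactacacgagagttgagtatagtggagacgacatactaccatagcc
MIG2: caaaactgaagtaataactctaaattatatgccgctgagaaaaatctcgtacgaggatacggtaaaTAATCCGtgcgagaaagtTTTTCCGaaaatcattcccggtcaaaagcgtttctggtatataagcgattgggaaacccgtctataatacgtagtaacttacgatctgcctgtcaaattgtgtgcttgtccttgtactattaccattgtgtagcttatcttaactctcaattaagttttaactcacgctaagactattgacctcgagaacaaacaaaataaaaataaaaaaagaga
MIG3: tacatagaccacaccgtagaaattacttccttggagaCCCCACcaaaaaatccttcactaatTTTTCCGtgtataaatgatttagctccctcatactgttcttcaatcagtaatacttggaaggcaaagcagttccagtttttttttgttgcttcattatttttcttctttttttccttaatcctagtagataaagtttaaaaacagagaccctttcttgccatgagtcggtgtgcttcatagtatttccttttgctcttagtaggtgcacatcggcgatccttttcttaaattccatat
NRG1: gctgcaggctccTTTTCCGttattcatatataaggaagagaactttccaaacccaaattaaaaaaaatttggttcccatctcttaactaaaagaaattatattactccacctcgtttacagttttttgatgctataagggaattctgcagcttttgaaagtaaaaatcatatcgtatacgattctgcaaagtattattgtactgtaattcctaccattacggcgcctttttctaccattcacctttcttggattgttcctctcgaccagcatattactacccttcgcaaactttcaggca
The windows are chrXIII:831330-831629 (reverse strand) for CAT8, chrX:265626-265925 (forward strand) for SIP4, chrVII:433063-433362 (reverse strand) for MIG1, chrVII:95558-95857 (forward strand) for MIG2, chrV:211877-212176 (reverse strand) for MIG3 and chrIV:543370-543669 (reverse strand) for NRG1. The CAT8 window held 2 matches to the Mig1p core, GCGGGG and GTGGGG, 231 and 215 bases before the start codon. MIG1 itself held GTGGGG at 216 bases and CTGGGG, on the other strand, at 138 bases, and MIG3 held GTGGGG, on the other strand, at 263 bases. The core occurred in 3 of the 10 members and in 12.05% of 6001 promoters of the same length. CGGANNA occurred in 5 of the 10 members, as a pair in SIP4 (155 and 103 bases before the start codon) and in MIG2 (234 and 216 bases) and once in MIG1, MIG3 and NRG1, and in 26.9% of the 6001 promoters. The carbon source response element, through which Cat8p and Sip4p act, was searched for in a single form of 12 bases. No member's window matched that form, which was found in 0.233% of promoters. Other forms of the element were not searched for, so these windows, that of SIP4 included, cannot be said to lack it. A match is a run of letters in these windows and not a measured site.

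Across the 36 libraries the 10 genes differed both in mean level and in how far they moved. Per kilobase of coding sequence, the mean level over all libraries ran from 10.3 CPM per kb for MIG3 and 18.8 for RDS2 to 68.2 for SIP4 and 71.7 for ADR1. The highest group mean of SIP4 was 70.0 times its lowest, against 26.5 times for MIG2, 17.6 for MIG3 and 8.75 for ADR1. The same ratio was 5.55 for CAT8, 4.09 for MIG1, 2.47 for NRG1, 1.57 for RDS2, 1.35 for SNF1 and 1.30 for REG1. Of the variance of log2 CPM, the limitation held 97.8% for SIP4, 95.5% for MIG1, 91.7% for MIG2 and 91.1% for ADR1, with a median of 57.7% over all genes tested. For SNF1 the limitation held 9.58%, the set 33.2% and their combination 41.1%. The kinase and phosphatase genes had the narrowest range of group means of the 10, and SIP4 and MIG2, which encode DNA-binding proteins, the widest.

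**Figure D1:**
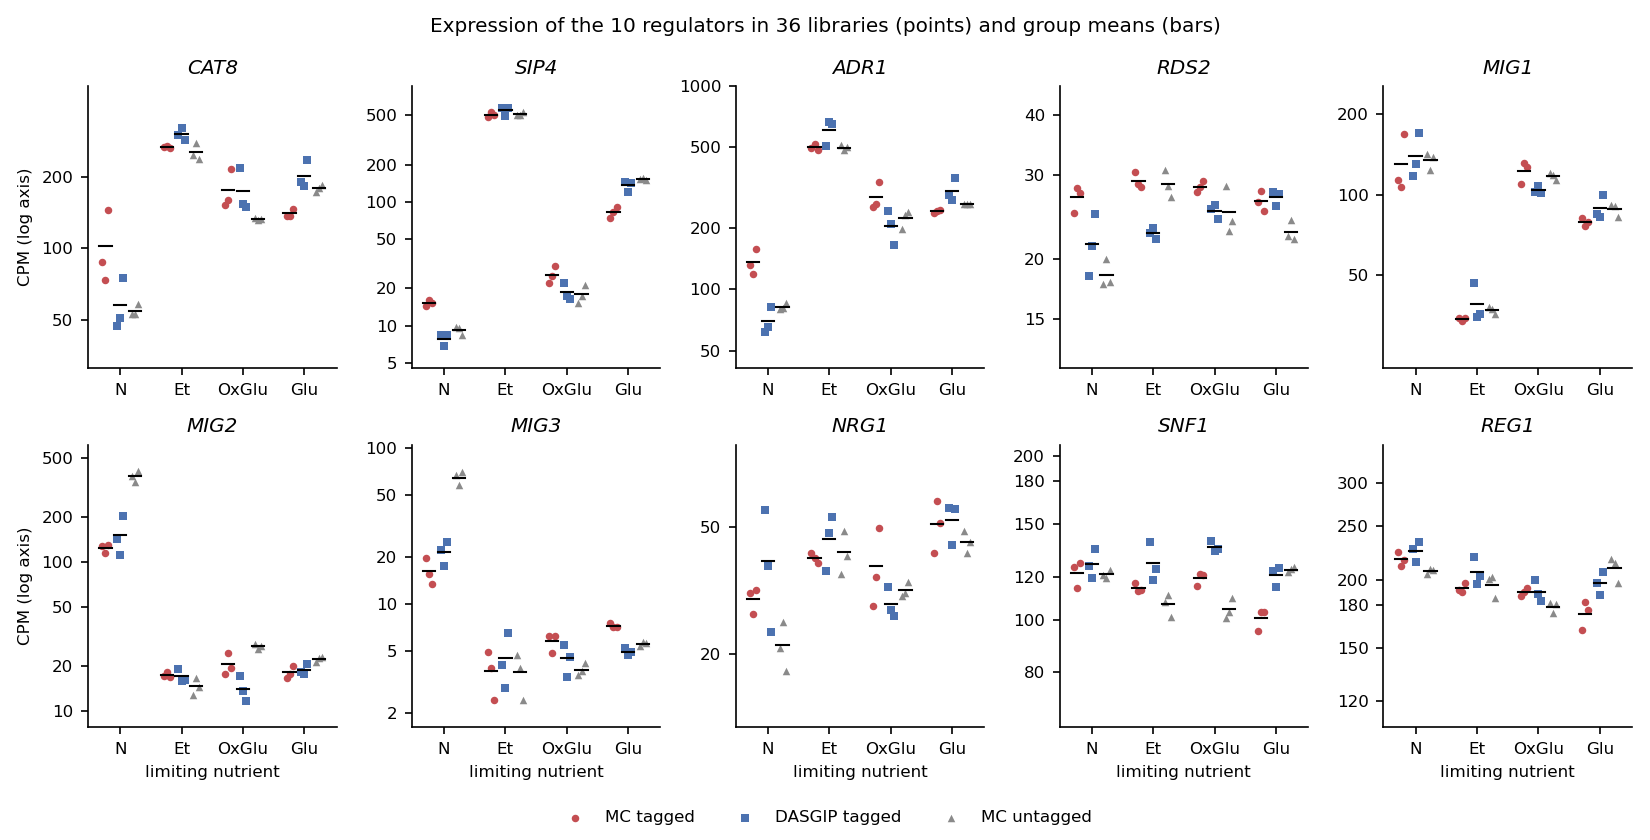
Expression of the 10 regulator genes in CPM (counts scaled to library size) on log axes, 1 panel a gene, with the limiting nutrient along each x axis. Points are libraries coloured by set and bars are means of 3; SIP4 spans 6.79 to 576 CPM, MIG2 stands high under N-lim alone, and REG1 stays between 162 and 235 CPM.

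Against Glu-lim, averaged over the 3 sets, CAT8, SIP4 and ADR1 were lower and the 3 MIG genes higher under N-lim, and the reverse held under Et-lim. Under N-lim all 10 members passed the test (edgeR quasi-likelihood F test, Benjamini-Hochberg adjustment over 6612 genes, threshold 0.05), where 71.7% of all genes did. CAT8, SIP4, ADR1, RDS2 and NRG1 were lower, and MIG1, MIG2, MIG3, SNF1 and REG1 were higher, with 37.4% of all genes lower and 34.3% higher. Of the 10, 5 passed with a change of at least 2-fold, as 13.4% of all genes did. Under Et-lim 6 of 10 passed, where 59.3% of all genes did: CAT8, SIP4 and ADR1 were higher (30.6% of all genes) and MIG1, MIG2 and MIG3 lower (28.7%). Under OxGlu-lim 5 of 10 passed, where 65.2% of all genes did: MIG1 was higher (32.9% of all genes), and SIP4, ADR1, MIG3 and NRG1 were lower (32.3%). With 10 members, 6 of 10 and 5 of 10 are no result about them beside those backgrounds. The median absolute log2 fold change of the members was 1.04, 0.42 and 0.15 under N-lim, Et-lim and OxGlu-lim, against 0.30, 0.21 and 0.24 over all genes tested. The 3 comparisons share the Glu-lim libraries. Set against each other, Et-lim and N-lim differed in 10 of 10 members (74.1% of all genes), Et-lim and OxGlu-lim in 7 (71.7%) and N-lim and OxGlu-lim in 8 (71.4%). The SNF1 call between Et-lim and N-lim was lost without any 1 of 4 libraries (adjusted p = 0.0531 to 0.0699). It was also lost with nuclear library sizes (0.107), a stricter filter (0.0505) and only the libraries compared (0.0588). The REG1 call between Et-lim and OxGlu-lim was lost without either of 2 libraries (adjusted p = 0.0507 and 0.166).

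Within single sets of 3 against 3 libraries, N-lim and Glu-lim differed in 9 of 10 members in MC tagged (55.2% of all genes), 8 in DASGIP tagged (55.8%) and 8 in MC untagged cultures (62.3%). Et-lim and Glu-lim differed in 7 (46.6%), 5 (32.3%) and 7 members (37.8%), with the sets in the same order. OxGlu-lim and Glu-lim differed in 3 (45.1%), 5 (44.4%) and 6 members (58.3%). CAT8, SIP4 and ADR1 were higher under Et-lim, and MIG1 lower, in each of the 3 sets. For CAT8 the MC untagged call was lost without any 1 of 3 libraries (adjusted p = 0.0558 to 0.0869). Its DASGIP tagged call was lost without Glu-lim replicate 2 (adjusted p = 0.0586).

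**Figure D2:**
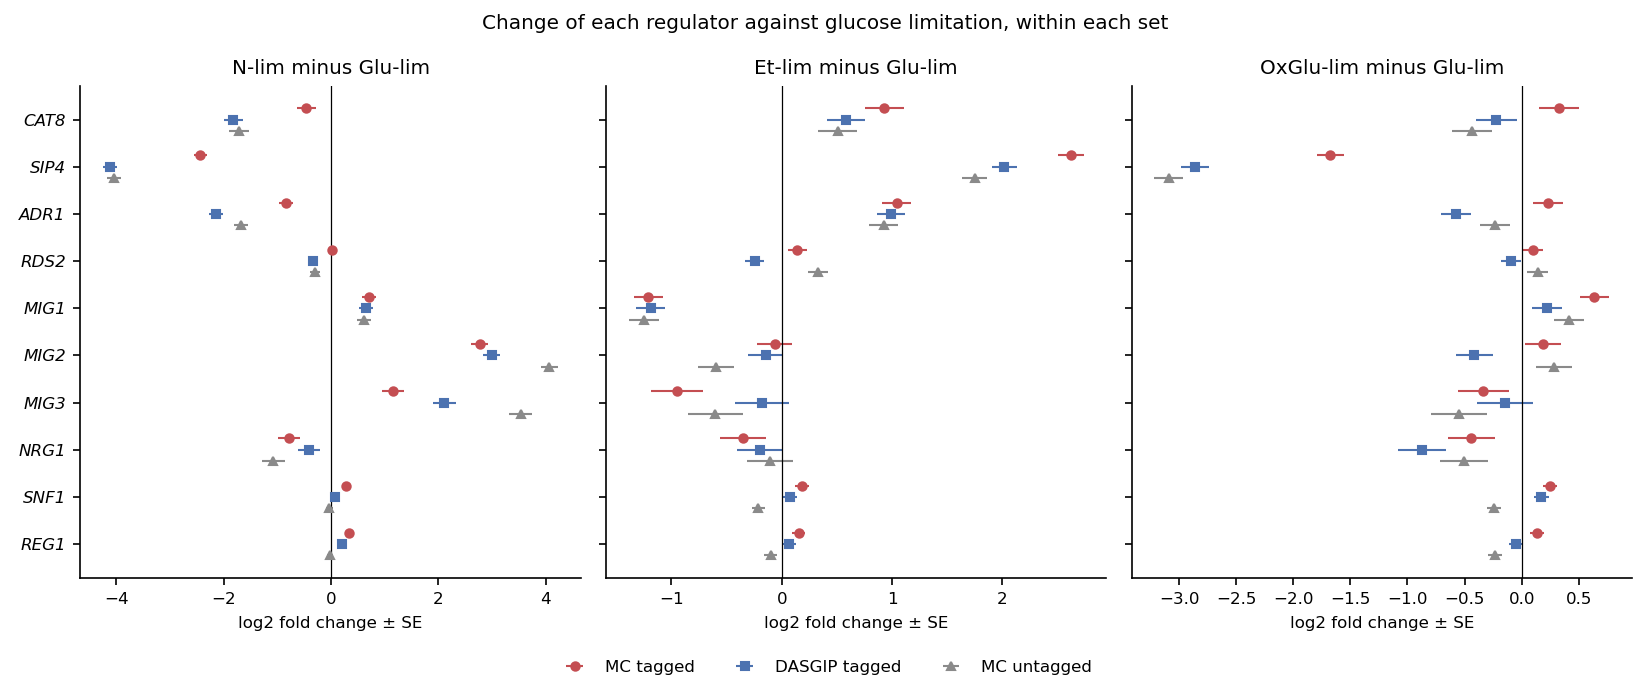
Log2 fold change ± SE of each regulator under N-lim, Et-lim and OxGlu-lim against Glu-lim, fitted within each set of 3 against 3 libraries (colours). SIP4 lies at -2.43 ± 0.12, -4.11 ± 0.13 and -4.04 ± 0.13 in the MC tagged, DASGIP tagged and MC untagged sets under N-lim; MIG1 takes nearly 1 value in all 3 sets under N-lim and Et-lim.

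SIP4 (YJL089W, chromosome X, 265926 to 268415, forward strand, R64), the zinc cluster activator whose own transcription is known to need Cat8p, had the widest range. Under Et-lim it measured 489.7, 530.4 and 504 CPM in the MC tagged libraries, 576, 498 and 576 CPM in the DASGIP tagged and 503, 504 and 537 CPM in the MC untagged libraries. Under Glu-lim it measured 74.7, 82.2 and 91.0 CPM in the MC tagged libraries, 145, 120.4 and 142 CPM in the DASGIP tagged and 152, 157 and 150.3 CPM in the MC untagged libraries. The Et-lim and Glu-lim libraries did not overlap, and SIP4 rose by 2.13 ± 0.07 on the log2 scale under Et-lim (SE; 4.38-fold, adjusted p = 1.05e-21). Under OxGlu-lim SIP4 measured 22.1, 25.1 and 30.3 CPM in the MC tagged libraries, 22.1, 17.5 and 16.3 CPM in the DASGIP tagged and 15.1, 17.4 and 21.3 CPM in the MC untagged libraries. Under N-lim it measured 14.4, 16.2 and 15.2 CPM in the MC tagged libraries, 8.38, 6.79 and 8.40 CPM in the DASGIP tagged and 9.70, 9.66 and 8.39 CPM in the MC untagged libraries. Every library of either limitation lay under every Glu-lim library, and the log2 fold change was -2.54 ± 0.07 under OxGlu-lim (5.83-fold lower, adjusted p = 3.01e-23) and -3.53 ± 0.07 under N-lim (11.6-fold lower, adjusted p = 1.34e-26). All neighbouring steps in the order Et-lim, Glu-lim, OxGlu-lim, N-lim passed the test. OxGlu-lim and N-lim libraries overlapped, through the MC tagged N-lim group, and differed by -0.99 ± 0.07 as N-lim minus OxGlu-lim (adjusted p = 4.67e-13). Between Et-lim and N-lim the log2 difference was 5.66 ± 0.08, or 50.6-fold.

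CAT8 (YMR280C, chromosome XIII, 827028 to 831329, reverse strand), which encodes the activator of gluconeogenic genes and whose promoter Mig1p is known to repress, followed the same order over a smaller range. Under Et-lim it measured 268, 269.5 and 264 CPM in the MC tagged libraries, 301, 322 and 287 CPM in the DASGIP tagged and 247, 279 and 238 CPM in the MC untagged libraries. The Glu-lim values were 137, 137 and 147 CPM in the MC tagged libraries, 190.2, 183 and 235 CPM in the DASGIP tagged and 173, 179.7 and 185 CPM in the MC untagged libraries. No Glu-lim library reached the Et-lim range, and CAT8 was 1.59-fold higher under Et-lim (0.67 ± 0.10 log2, adjusted p = 1.67e-06). Under OxGlu-lim CAT8 measured 152, 159 and 217 CPM in the MC tagged libraries, 218, 154 and 149.5 CPM in the DASGIP tagged and 135, 131 and 132 CPM in the MC untagged libraries. These values straddle those of Glu-lim, and the difference did not pass (-0.11 ± 0.10 log2, adjusted p = 0.354). That average joins 0.33 ± 0.18 in MC tagged (adjusted p = 0.131), -0.22 ± 0.18 in DASGIP tagged (adjusted p = 0.324) and -0.43 ± 0.18 in MC untagged cultures (adjusted p = 0.0362), and the MC untagged call was lost without any 1 of 7 libraries (adjusted p = 0.0527 to 0.0817). Under N-lim CAT8 measured 87.9, 73.4 and 145 CPM in the MC tagged libraries, 46.9, 51.0 and 74.8 CPM in the DASGIP tagged and 52.9, 52.8 and 58.1 CPM in the MC untagged libraries. Replicate 3 of the MC tagged group was the highest of the 9 N-lim libraries and the only one to enter the Glu-lim range, and that group's SD was 37.2% of its mean. CAT8 was 2.52-fold lower under N-lim over the 3 sets (-1.33 ± 0.10 log2, adjusted p = 1.18e-12). By set, the value was -0.46 ± 0.18 for MC tagged, -1.82 ± 0.18 for DASGIP tagged and -1.72 ± 0.18 for MC untagged cultures. The MC tagged value was -0.80 (adjusted p = 0.000138) without replicate 3 of N-lim. It lost its call without replicate 1 or 2 of N-lim or replicate 3 of Glu-lim (adjusted p = 0.0771 to 0.21; -0.27 without replicate 2).

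ADR1 (YDR216W, chromosome IV, 895035 to 899006, forward strand), the activator of ADH2 and of peroxisomal genes, ran close to CAT8. Under Et-lim it measured 494, 519 and 485 CPM in the MC tagged libraries, 505, 667 and 652 CPM in the DASGIP tagged and 511, 484 and 499 CPM in the MC untagged libraries. Under Glu-lim it measured 237, 243 and 247 CPM in the MC tagged libraries, 290.2, 277 and 352 CPM in the DASGIP tagged and 264, 262 and 262 CPM in the MC untagged libraries. The ranges were apart and ADR1 was 1.98-fold higher under Et-lim (0.99 ± 0.08 log2, adjusted p = 2.84e-12). Under N-lim it measured 132, 119 and 157 CPM in the MC tagged libraries, 61.4, 65.0 and 82.3 CPM in the DASGIP tagged and 80.4, 80.5 and 85.8 CPM in the MC untagged libraries. All 9 lay under the Glu-lim range, with the MC tagged libraries the highest of them, and ADR1 was 2.93-fold lower (-1.55 ± 0.08 log2, adjusted p = 2.47e-17). Under OxGlu-lim ADR1 measured 253, 262 and 337 CPM in the MC tagged libraries, 243, 209.9 and 165 CPM in the DASGIP tagged and 199, 233 and 239 CPM in the MC untagged libraries. These overlapped Glu-lim, and a small difference of -0.19 ± 0.08 passed (adjusted p = 0.026). That call was lost without any 1 of 5 libraries (adjusted p = 0.0542 to 0.142), which were MC tagged replicates 1 and 2, DASGIP tagged replicate 3 and MC untagged replicate 1 of OxGlu-lim and DASGIP tagged replicate 3 of Glu-lim. The values by set were 0.23 ± 0.13 in MC tagged, -0.57 ± 0.13 in DASGIP tagged and -0.23 ± 0.13 in MC untagged cultures.

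RDS2 (YPL133C, chromosome XVI, 299888 to 301228, reverse strand), the third zinc cluster activator, stayed within a narrow range. It measured 17.8 to 28.2 CPM (median 21.3) under N-lim, 22.1 to 30.7 CPM (median 28.3) under Et-lim, 22.98 to 29.1 CPM (median 26.0) under OxGlu-lim and 22.03 to 27.7 CPM (median 25.9) under Glu-lim, over 9 libraries each. All these ranges overlapped. Averaged over the sets, N-lim alone differed from Glu-lim (-0.20 ± 0.05 log2, adjusted p = 0.000856), and in the MC tagged set alone the value was 0.03 ± 0.09 (adjusted p = 0.821). The averaged Et-lim difference was 0.07 ± 0.05 (adjusted p = 0.207) and the OxGlu-lim difference 0.05 ± 0.05 (adjusted p = 0.411). Under Et-lim the average joins sets that went opposite ways. RDS2 was higher in MC untagged cultures (0.33 ± 0.09, adjusted p = 0.0039), a call kept in all 43 alternative analyses. It was lower in DASGIP tagged cultures (-0.25 ± 0.09, adjusted p = 0.0327), a call lost without any 1 of 5 libraries (adjusted p = 0.0533 to 0.0922) and in a fit of the 6 libraries compared (0.0549).

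The balance of SIP4 and CAT8 in RNA differed between limitations, also between those fed glucose. Per kilobase, SIP4 stood at 3.29 ± 0.124, 3.15 ± 0.424 and 3.52 ± 0.392 times the level of CAT8 under Et-lim in the MC tagged, DASGIP tagged and MC untagged sets (SD, n = 3). Under Glu-lim the same ratio was 1.02 ± 0.0659, 1.17 ± 0.141 and 1.47 ± 0.0629, and under OxGlu-lim 0.255 ± 0.0153, 0.186 ± 0.0109 and 0.234 ± 0.0421. Under N-lim it was 0.282 ± 0.1, 0.244 ± 0.0587 and 0.294 ± 0.0385. The ratio was above 1 in every Et-lim library and under 1 in every OxGlu-lim and N-lim library. The ratio of ADR1 to CAT8 per kilobase stayed between 1.29 (mean of DASGIP tagged OxGlu-lim) and 2.18 (DASGIP tagged Et-lim) in all 12 groups.

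MIG1 (YGL035C, chromosome VII, 431548 to 433062, reverse strand), the main glucose repressor, was lower under Et-lim and higher under N-lim by nearly the same amount in each set. Under Et-lim it measured 34.4, 33.4 and 34.5 CPM in the MC tagged libraries, 46.5, 34.7 and 35.6 CPM in the DASGIP tagged and 37.8, 37.2 and 35.6 CPM in the MC untagged libraries. In Glu-lim cultures MIG1 was at 81.5, 76.2 and 79.1 CPM in the MC tagged libraries, 84.9, 82.6 and 99.3 CPM in the DASGIP tagged and 91.3, 90.3 and 82.2 CPM in the MC untagged libraries. Every Et-lim library lay under every Glu-lim library, and MIG1 was 2.32-fold lower under Et-lim (-1.22 ± 0.08 log2, adjusted p = 3.95e-14). Under N-lim it measured 113, 107 and 169 CPM in the MC tagged libraries, 117, 130.5 and 170.4 CPM in the DASGIP tagged and 142, 124 and 138 CPM in the MC untagged libraries. Under OxGlu-lim it measured 109, 131 and 127 CPM in the MC tagged libraries, 102, 108 and 101 CPM in the DASGIP tagged and 120.3, 118 and 113 CPM in the MC untagged libraries. Both limitations stood above the Glu-lim range in all 18 libraries, with MIG1 0.66 ± 0.07 higher under N-lim (adjusted p = 4.2e-09) and 0.43 ± 0.08 higher under OxGlu-lim (adjusted p = 1.26e-05). Within the DASGIP tagged set the OxGlu-lim value of 0.22 ± 0.13 did not pass (adjusted p = 0.169). N-lim and OxGlu-lim overlapped and differed by 0.23 ± 0.07 (adjusted p = 0.00608; 0.16 without MC tagged N-lim replicate 3, adjusted p = 0.0259). Within sets the Et-lim difference was -1.21 ± 0.13 in MC tagged, -1.19 ± 0.13 in DASGIP tagged and -1.25 ± 0.13 in MC untagged cultures.

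MIG2 (YGL209W, chromosome VII, 95858 to 97006, forward strand), the relative of MIG1 whose transcription glucose is known to induce through the Rgt1p pathway, was high under N-lim alone. Under N-lim it measured 128, 116 and 131 CPM in the MC tagged libraries, 142, 111 and 204 CPM in the DASGIP tagged and 379.5, 345 and 406 CPM in the MC untagged libraries. Its Glu-lim values were 16.7, 17.9 and 20.2 CPM in the MC tagged libraries, 18.4, 17.9 and 20.8 CPM in the DASGIP tagged and 21.5, 22.6 and 23.1 CPM in the MC untagged libraries. The lowest N-lim library was several times the highest Glu-lim one, the MC untagged cultures stood above both other sets, and MIG2 was 9.72-fold higher under N-lim (3.28 ± 0.09 log2, adjusted p = 9.74e-24). Under Et-lim MIG2 measured 17.1, 18.3 and 16.9 CPM in the MC tagged libraries, 19.3, 16.0 and 16.1 CPM in the DASGIP tagged and 12.9, 16.8 and 14.6 CPM in the MC untagged libraries. Under OxGlu-lim it measured 17.7, 24.8 and 19.6 CPM in the MC tagged libraries, 17.2, 13.7 and 11.8 CPM in the DASGIP tagged and 28.1, 26.2 and 27.4 CPM in the MC untagged libraries. Both overlapped Glu-lim. The Et-lim difference passed at -0.27 ± 0.09 (adjusted p = 0.0131) and the OxGlu-lim difference of 0.02 ± 0.09 did not (adjusted p = 0.875). By set, Et-lim passed in MC untagged cultures alone (-0.60 ± 0.16, adjusted p = 0.00398), with -0.06 ± 0.16 in MC tagged (adjusted p = 0.76) and -0.15 ± 0.16 in DASGIP tagged cultures (adjusted p = 0.512). The OxGlu-lim average joins -0.41 ± 0.16 in DASGIP tagged cultures (adjusted p = 0.0375) with 0.18 ± 0.16 in MC tagged (adjusted p = 0.349) and 0.28 ± 0.15 in MC untagged cultures (adjusted p = 0.115). The DASGIP tagged call was lost without any 1 of 5 libraries (adjusted p = 0.0578 to 0.181).

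MIG3 (YER028C, chromosome V, 210692 to 211876, reverse strand), the member with the lowest level per kilobase, shared the rise under N-lim. There it measured 19.7, 15.6 and 13.5 CPM in the MC tagged libraries, 22.2, 17.6 and 25.1 CPM in the DASGIP tagged and 66.8, 57.7 and 70.0 CPM in the MC untagged libraries. In Glu-lim cultures MIG3 was at 7.58, 7.18 and 7.13 CPM in the MC tagged libraries, 5.23, 4.75 and 4.97 CPM in the DASGIP tagged and 5.39, 5.71 and 5.65 CPM in the MC untagged libraries. The groups did not overlap, and MIG3 was 4.82-fold higher under N-lim (2.27 ± 0.12 log2, adjusted p = 1.1e-16). Under Et-lim MIG3 measured 4.94, 3.90 and 2.45 CPM in the MC tagged libraries, 4.07, 2.90 and 6.52 CPM in the DASGIP tagged and 4.72, 3.88 and 2.45 CPM in the MC untagged libraries. Under OxGlu-lim it measured 6.25, 4.84 and 6.29 CPM in the MC tagged libraries, 5.51, 3.41 and 4.62 CPM in the DASGIP tagged and 3.53, 3.73 and 4.18 CPM in the MC untagged libraries. The ranges of both overlapped Glu-lim, with MIG3 at -0.58 ± 0.14 under Et-lim (adjusted p = 0.000787) and at -0.34 ± 0.14 under OxGlu-lim (adjusted p = 0.0285). The second of these calls was lost without OxGlu-lim replicate 2 of either tagged set or MC untagged replicate 1 (adjusted p = 0.0519 to 0.0745). By set, Et-lim passed in MC tagged cultures (-0.95 ± 0.23, adjusted p = 0.00137) and not in DASGIP tagged (-0.18 ± 0.24, adjusted p = 0.61) or MC untagged cultures (-0.60 ± 0.25, adjusted p = 0.056). OxGlu-lim passed in no single set, at -0.34 ± 0.22, -0.14 ± 0.24 and -0.55 ± 0.24 in the same order (adjusted p = 0.224, 0.663 and 0.0532). The MC untagged differences did pass in some alternative analyses, 10 of 43 for Et-lim and 13 of 43 for OxGlu-lim. DESeq2 was among these (adjusted p = 0.0334 and 0.0327). At the read counts of MIG3 the SD of a group of 3 reached 41.1% of its mean.

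The make-up of the Mig family changed with limitation. Per kilobase, MIG2 was 1.31 ± 0.254, 1.43 ± 0.267 and 3.69 ± 0.186 times the level of MIG1 under N-lim in the MC tagged, DASGIP tagged and MC untagged sets. Under Glu-lim the ratio was 0.306 ± 0.0336, 0.283 ± 0.00607 and 0.337 ± 0.0306. MIG2 thus stood above MIG1 per kilobase in all 9 N-lim libraries and below it in all 9 Glu-lim libraries. MIG3 was 0.615 ± 0.03 times MIG1 in MC untagged N-lim cultures, against 0.17 ± 0.0615 in MC tagged and 0.201 ± 0.0367 in DASGIP tagged cultures.

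NRG1 (YDR043C, chromosome IV, 542674 to 543369, reverse strand), a zinc finger repressor of glucose-repressed genes outside the Mig family, went with the activators under N-lim. It measured 31.0, 26.8 and 31.8 CPM in the MC tagged libraries, 56.5, 37.8 and 23.6 CPM in the DASGIP tagged and 20.98, 25.3 and 17.8 CPM in the MC untagged libraries. The values of NRG1 under Glu-lim were 41.6, 60.2 and 51.6 CPM in the MC tagged libraries, 57.2, 43.9 and 57.1 CPM in the DASGIP tagged and 48.5, 41.4 and 45.1 CPM in the MC untagged libraries. The DASGIP tagged N-lim libraries were the most scattered, with an SD of 42.1% of their mean, and their highest lay within the Glu-lim range. NRG1 was 1.69-fold lower under N-lim over the 3 sets (-0.76 ± 0.12 log2, adjusted p = 2.39e-06), with -0.78 ± 0.21 in MC tagged and -1.07 ± 0.21 in MC untagged cultures. In the DASGIP tagged set the difference of -0.42 ± 0.21 did not pass (adjusted p = 0.0876), and it passed without replicate 1 of N-lim (adjusted p = 0.00233). NRG1 was also lower under OxGlu-lim, at 26.3 to 49.8 CPM (median 31.2) and -0.61 ± 0.12 log2 (adjusted p = 7.59e-05). By set it was at -0.44 ± 0.21 in MC tagged (adjusted p = 0.086), -0.87 ± 0.21 in DASGIP tagged (adjusted p = 0.0012) and -0.50 ± 0.21 in MC untagged cultures (adjusted p = 0.0426). The MC untagged call was lost without any 1 of 6 libraries (adjusted p = 0.053 to 0.117) and with a replicate block (0.0507). In MC tagged cultures NRG1 passed without any 1 of 4 libraries (adjusted p = 0.0137 to 0.0468). Under Et-lim it measured 35.7 to 53.6 CPM (median 40.7), and its difference of -0.22 ± 0.12 did not pass (adjusted p = 0.115; 0.0269 in a fit of the Et-lim and Glu-lim libraries alone).

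SNF1 (YDR477W, chromosome IV, 1412373 to 1414274, forward strand) and REG1 (YDR028C, chromosome IV, 497835 to 500879, reverse strand), the kinase and the subunit that opposes it, changed by small amounts. SNF1 measured 114 to 135 CPM (median 124) under N-lim, 101 to 139 CPM (median 114) under Et-lim, 101 to 139.8 CPM (median 121) under OxGlu-lim and 95.2 to 125 CPM (median 122) under Glu-lim. REG1 measured 205 to 235 CPM (median 215) under N-lim, 185 to 219.7 CPM (median 197) under Et-lim, 174 to 199.5 CPM (median 187) under OxGlu-lim and 162 to 218 CPM (median 197) under Glu-lim. All 4 ranges of SNF1 overlapped, and those of REG1 did so but for N-lim against OxGlu-lim. Under N-lim SNF1 was 0.11 ± 0.04 higher than under Glu-lim (adjusted p = 0.00948) and REG1 0.17 ± 0.03 higher (adjusted p = 7.42e-05). Within the MC untagged set neither difference passed, at -0.03 ± 0.06 (adjusted p = 0.72) and -0.02 ± 0.06 (adjusted p = 0.829). Averaged over sets, Et-lim put SNF1 at 0.02 ± 0.04 (adjusted p = 0.709) and REG1 at 0.04 ± 0.03 (adjusted p = 0.317). The sets differed in direction. SNF1 was at 0.19 ± 0.06 in MC tagged cultures (adjusted p = 0.0154; lost without replicate 1 of Et-lim or of Glu-lim, 0.0536 and 0.0889). It was at -0.21 ± 0.06 in MC untagged cultures (adjusted p = 0.00822; lost without Et-lim replicate 3, 0.0546). REG1 passed in MC tagged cultures alone, at 0.15 ± 0.06 (adjusted p = 0.0373; lost without any 1 of 5 libraries, 0.0546 to 0.202, and in a fit of the 6 libraries compared, 0.087). Under OxGlu-lim SNF1 was at 0.06 ± 0.04 (adjusted p = 0.152; 0.0174 once MC tagged OxGlu-lim replicate 1 was left out) and REG1 at -0.05 ± 0.04 (adjusted p = 0.216). Under OxGlu-lim the SNF1 average likewise joins opposite directions, with 0.25 ± 0.06 in MC tagged (adjusted p = 0.00196), 0.17 ± 0.06 in DASGIP tagged (adjusted p = 0.0243; lost without DASGIP tagged OxGlu-lim replicate 1 or Glu-lim replicate 2, 0.0797 and 0.114) and -0.24 ± 0.06 in MC untagged cultures (adjusted p = 0.00153). REG1 was lower in MC untagged cultures there (-0.23 ± 0.06, adjusted p = 0.00157), against 0.13 ± 0.06 in MC tagged (adjusted p = 0.0739) and -0.05 ± 0.06 in DASGIP tagged cultures (adjusted p = 0.545). The order of SNF1 levels was N-lim, OxGlu-lim, Et-lim, Glu-lim, and no neighbours in it passed the test.

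The vessel question was asked by setting MC tagged against DASGIP tagged cultures. Averaged over 4 limitations, 5 of 10 members passed, where 34.4% of all genes did. SIP4 (0.15 ± 0.06 log2), ADR1 (0.20 ± 0.07) and RDS2 (0.21 ± 0.04) were higher in MC tagged cultures (17.1% of all genes), and SNF1 (-0.16 ± 0.03) and REG1 (-0.08 ± 0.03) lower (17.3%). The RDS2, ADR1 and SNF1 calls (adjusted p = 0.000527, 0.0159 and 0.000154) held without any 1 library. Those of SIP4 (adjusted p = 0.0486) and REG1 (adjusted p = 0.0315) were lost without any 1 of 24 and of 7 of the 36 libraries (adjusted p = 0.0501 to 0.115 and 0.0513 to 0.068). REG1 was also lost with library sizes from nuclear reading frames (adjusted p = 0.0753), and both in a fit of the tagged libraries alone (0.0508 for SIP4 and 0.142 for REG1). For SIP4 the average joins opposite differences. Under N-lim SIP4 was 0.96 ± 0.13 higher in MC tagged cultures (adjusted p = 4.43e-06), and under Glu-lim it was lower at -0.72 ± 0.11 (adjusted p = 5.45e-05). No batch, date or lane is given, so a vessel or strain difference cannot be told apart from anything else that ran with a set.

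The strain question was asked by setting MC tagged against MC untagged cultures, which shares the MC tagged libraries with the vessel question. Averaged over limitations, 4 of 10 members passed, where 18.1% of all genes did. CAT8 (0.26 ± 0.09), ADR1 (0.24 ± 0.07) and RDS2 (0.23 ± 0.04) were higher in MC tagged cultures (8.38% of all genes) and MIG2 lower (-0.51 ± 0.08, adjusted p = 3.59e-05; 9.77%). The CAT8 call (adjusted p = 0.0413) was lost without any 1 of 17 of the 36 libraries (adjusted p = 0.0546 to 0.0933). The averages hide where the difference lay. Under Et-lim no member passed (0.272% of all genes did), and the widest difference of a member was 0.24 ± 0.16 for MIG2 (adjusted p = 0.643). At an unadjusted p under 0.05 there were 0 of 10 under Et-lim, and the share of all genes at that threshold was not taken. DESeq2 called 94 genes there and 0 of the 10 members. Neither count is a result about the members.

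Under N-lim the 4 activator genes were higher in MC tagged cultures than in either other set. Against DASGIP tagged cultures, 4 of 10 members passed (18.3% of all genes), all higher (10.6%): CAT8 at 0.83 ± 0.18, SIP4 at 0.96 ± 0.13, ADR1 at 0.97 ± 0.13 and RDS2 at 0.33 ± 0.09. Against MC untagged cultures the same contrast put CAT8 at 0.90 ± 0.18, SIP4 at 0.72 ± 0.13, ADR1 at 0.73 ± 0.13 and RDS2 at 0.53 ± 0.09, all passing, among 6 of 10 members (32.4% of all genes). For SIP4 the MC tagged libraries lay above all those of both other sets, which overlapped each other, at 15.3 ± 0.927 CPM in MC tagged, 7.86 ± 0.923 CPM in DASGIP tagged and 9.25 ± 0.746 CPM in MC untagged cultures (SD, n = 3). The same held for ADR1, at 136 ± 19.4 CPM, 69.6 ± 11.2 CPM and 82.2 ± 3.10 CPM in the same order. For CAT8 the values without MC tagged replicate 3 were 0.49 against DASGIP tagged (adjusted p = 0.0272) and 0.56 against MC untagged cultures (adjusted p = 0.00777). In a fit of the MC tagged and DASGIP tagged libraries alone the CAT8 and RDS2 calls were lost (adjusted p = 0.141 and 0.187), and RDS2 was lost without DASGIP tagged replicate 1 (adjusted p = 0.0956).

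The other 2 members that passed between strains under N-lim were repressors, and they were lower in MC tagged cultures. MIG2 measured 125 ± 8.14 CPM in MC tagged and 377 ± 30.7 CPM in MC untagged cultures (-1.59 ± 0.14 log2, 3.02-fold lower, adjusted p = 9.32e-09). MIG3 measured 16.3 ± 3.15 CPM and 64.8 ± 6.40 CPM in the same order (-1.99 ± 0.19 log2, 3.98-fold lower, adjusted p = 2.54e-08). The DASGIP tagged cultures, which also carry the tag, stood near the MC tagged ones at 152 ± 47.2 CPM for MIG2 and 21.6 ± 3.78 CPM for MIG3, and the vessel differences of -0.28 ± 0.14 (adjusted p = 0.167) and -0.41 ± 0.19 (adjusted p = 0.14) did not pass. Without DASGIP tagged replicate 2 the MIG2 vessel difference passed (adjusted p = 0.0187). MIG1, their relative, was at 129.7 ± 34.1 CPM in MC tagged and 135 ± 9.70 CPM in MC untagged cultures (-0.05 ± 0.13 log2, adjusted p = 0.778).

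Under Glu-lim the MC tagged cultures had less SIP4, SNF1 and REG1. SIP4 was at -0.72 ± 0.11 against DASGIP tagged and -0.89 ± 0.11 against MC untagged cultures (adjusted p = 5.45e-05 and 3.32e-06), with 82.6 ± 8.14 CPM in MC tagged, 136 ± 13.5 CPM in DASGIP tagged and 153 ± 3.27 CPM in MC untagged cultures. SNF1 was at -0.26 ± 0.06 and -0.30 ± 0.06 in the same comparisons (adjusted p = 0.00336 and 0.00143), and REG1 at -0.18 ± 0.06 and -0.28 ± 0.06 (adjusted p = 0.0298 and 0.00199). The REG1 vessel call was lost without MC tagged replicate 1 or 3 or DASGIP tagged replicate 1 or 3 (adjusted p = 0.0535 to 0.17). CAT8 was also lower than in DASGIP tagged cultures (-0.53 ± 0.18, adjusted p = 0.0304), a call lost without any MC tagged library or DASGIP tagged replicate 3 (adjusted p = 0.0562 to 0.156). With these, 4 of 10 members passed against DASGIP tagged (21.1% of all genes) and 3 of 10 against MC untagged cultures (22.5%).

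Under OxGlu-lim and Et-lim the sets differed less firmly. Against DASGIP tagged cultures under OxGlu-lim, 4 of 10 members passed (17.6% of all genes): SIP4 (0.47 ± 0.12), ADR1 (0.47 ± 0.13) and MIG2 (0.54 ± 0.16) were higher in MC tagged cultures and SNF1 lower (-0.19 ± 0.06). All 4 calls were lost on leaving out single libraries. For SIP4 and ADR1 these were replicate 3 of either set (adjusted p = 0.0574 to 0.13), for MIG2 replicate 2 of either set or DASGIP tagged replicate 3 (0.0733 to 0.139), and for SNF1 any 1 of 6 libraries (0.055 to 0.0907). Against MC untagged cultures 2 of 10 passed (24.1% of all genes), with SIP4 at 0.53 ± 0.12 and SNF1 at 0.19 ± 0.06. The SNF1 call was lost without any 1 of 4 libraries (adjusted p = 0.0732 to 0.122). Both calls were lost in a fit of only the libraries compared (0.0616 for SIP4 and 0.119 for SNF1). ADR1 did not pass between these sets, but it did in 12 of 43 alternative analyses, DESeq2 among them (adjusted p = 0.0281). Under Et-lim RDS2 alone passed between vessels (0.36 ± 0.09, adjusted p = 0.00678), where 11.8% of all genes did.

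Whether a vessel or strain difference depended on limitation was tested jointly over the 4 limitations. For the vessel, 5 of 10 members passed, where 24.1% of all genes did: CAT8, SIP4, ADR1, MIG2 and MIG3. For the strain, 8 of 10 passed, where 47.7% of all genes did: CAT8, SIP4, ADR1, RDS2, MIG2, MIG3, SNF1 and REG1. SIP4 had the highest F of the members in both (F = 36.6, adjusted p = 3.46e-07 for the vessel and F = 37.4, adjusted p = 1.68e-07 for the strain). MIG1 passed in neither (adjusted p = 0.187 and 0.708), nor did NRG1 (adjusted p = 0.171 and 0.435). Without MC tagged N-lim replicate 3 MIG1 passed for the vessel (adjusted p = 0.021), and without DASGIP tagged N-lim replicate 3 NRG1 did (adjusted p = 0.0272). RDS2 passed for the vessel without any 1 of 3 libraries (adjusted p = 0.0135 to 0.0434), with nuclear library sizes (0.0414) and in DESeq2 (0.0497). The MIG2 and MIG3 calls for the vessel were lost without any 1 of 4 and of 21 of the 36 libraries.

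**Figure D3:**
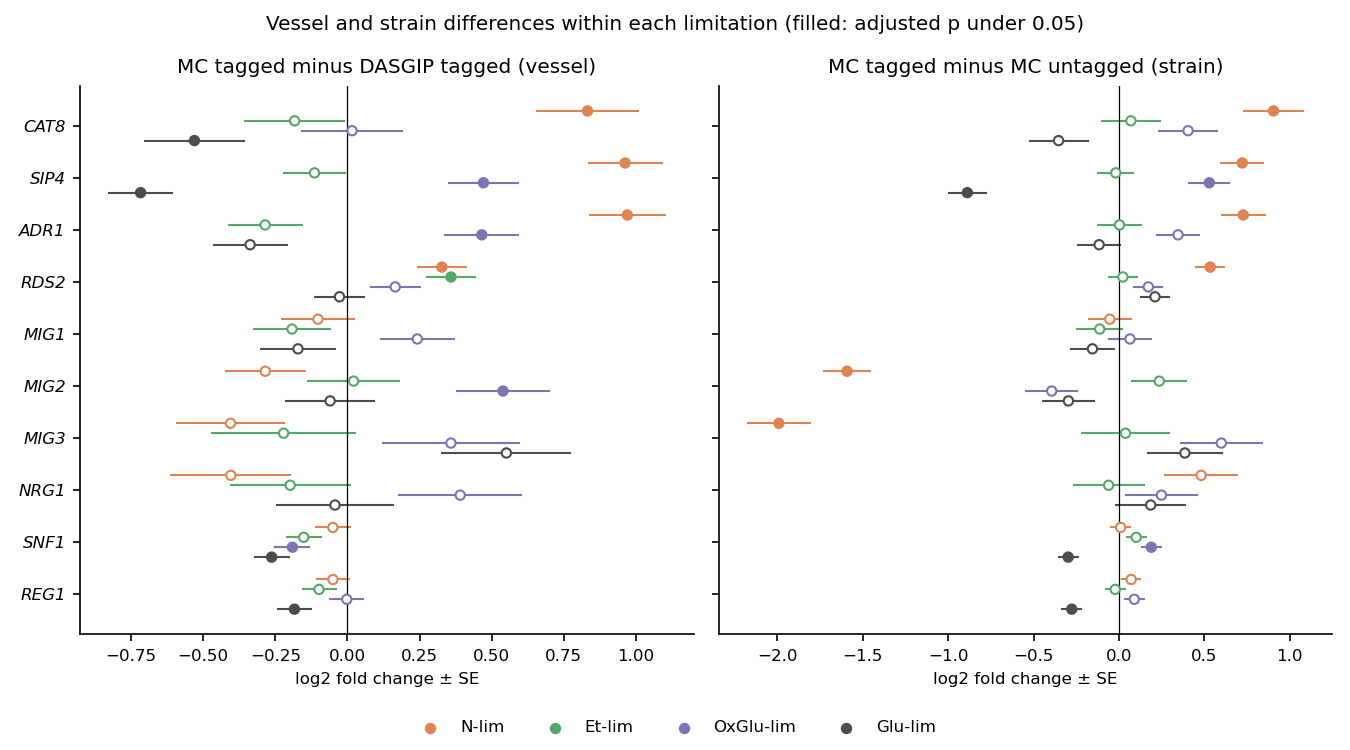
Log2 fold change ± SE of each regulator within each limitation (colours), MC tagged minus DASGIP tagged on the left and MC tagged minus MC untagged on the right, with filled points for adjusted p under 0.05. MIG2 and MIG3 under N-lim lie at -1.59 ± 0.14 and -1.99 ± 0.19 on the right, and SIP4 lies right of 0 under N-lim and left of it under Glu-lim in both panels.

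Genes listed as targets of Cat8p and Sip4p moved with the activators under Et-lim and N-lim. Under Et-lim 9 of 10 were higher and none lower, where 30.6% of all genes were higher and 28.7% lower, with a median log2 fold change of 3.98 against 0.01 over all genes, led by the gluconeogenic PCK1 (5.82 ± 0.20), the glyoxylate enzymes ICL1 (4.58 ± 0.09) and MLS1 (4.28 ± 0.09) and the acetate transporter ADY2 (4.57 ± 0.18). Under N-lim 9 were lower and 1 higher (median -3.36), where 37.4% of all genes were lower and 34.3% higher, led by the lactate permease JEN1 (-5.99 ± 0.19), the acetyl-CoA synthetase ACS1 (-5.94 ± 0.15), the succinate-fumarate carrier SFC1 (-5.85 ± 0.15) and ADY2 (-5.54 ± 0.21). The exception was MLS1 (0.42 ± 0.08), named after its value was seen. Under OxGlu-lim 9 were again lower (median -3.30; 32.3% of all genes were lower and 32.9% higher), led by ADY2 (-4.01 ± 0.19), IDP2 (-3.87 ± 0.10), SFC1 (-3.83 ± 0.13) and JEN1 (-3.52 ± 0.17). There CAT8 itself was at -0.11 ± 0.10 and SIP4 at -2.54 ± 0.07. PCK1 was the 1 target that was higher under OxGlu-lim (1.56 ± 0.17, also named after its value was seen).

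Of 9 targets of Adr1p, 7 were higher under Et-lim (30.6% of all genes) and none lower (median 0.56), led by the ethanol-oxidising dehydrogenase gene ADH2 (1.97 ± 0.10), the catalase CTA1 (1.51 ± 0.13), the glycerol kinase GUT1 (0.91 ± 0.12) and FOX2 (0.76 ± 0.17). All 9 were lower under N-lim (median -3.05; 37.4% of all genes) and all 9 under OxGlu-lim (median -2.32; 32.3%). ADH2 led both, at -7.42 ± 0.13 under N-lim and -6.56 ± 0.13 under OxGlu-lim, where ADR1 itself was at -0.19 ± 0.08. ALD4, which encodes a mitochondrial aldehyde dehydrogenase, was at -3.99 ± 0.11 and -2.51 ± 0.10, and CTA1 at -3.60 ± 0.15 and -2.87 ± 0.14.

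Of 8 genes known to be repressed by Mig1p and its relatives, 7 were lower under N-lim (37.4% of all genes) and 1 higher (34.3%; median -0.87). The invertase SUC2 was at -3.24 ± 0.12, the transporter HXT2 at -2.66 ± 0.28 and the maltase MAL32 at -1.44 ± 0.25, and the transporter HXT4 was the 1 higher, at 3.95 ± 0.15. Under Et-lim, where MIG1, MIG2 and MIG3 were lower, 6 of the 8 were lower as well (28.7% of all genes) and 1 higher (30.6%; median -0.96), led by HXT4 (-3.10 ± 0.15), the hexokinase HXK1 (-2.02 ± 0.22), HXT2 (-1.99 ± 0.28) and MAL32 (-1.30 ± 0.25). Under OxGlu-lim, where MIG1 was higher, 6 were higher (32.9% of all genes) and 2 lower (32.3%; median 1.13), led by MAL32 (2.999 ± 0.23), SUC2 (2.79 ± 0.12) and HXK1 (2.35 ± 0.22), with HXT4 lower (-1.90 ± 0.14). HXT2, HXT4 and MAL32 belong to families of closely similar genes, so their counts are uncertain.

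Between sets fewer of the listed targets passed. For MC tagged against DASGIP tagged cultures, 2 of the 10 Cat8p and Sip4p targets were higher and 1 lower, with PCK1 at 0.66 ± 0.15, JEN1 at -0.48 ± 0.14 and MDH2 at 0.42 ± 0.08. Of the 9 Adr1p targets 2 were higher and 1 lower, with POT1 at 0.56 ± 0.14 and ADH2 at -0.27 ± 0.09. Of the 8 Mig1p targets 3 were higher, with HXT2 at 1.505 ± 0.24 and SUC2 at 0.68 ± 0.10. Over all genes 34.4% passed (17.1% higher and 17.3% lower), so 3 of 10, 3 of 9 and 3 of 8 are no result about these lists. For MC tagged against MC untagged cultures, 4 of the 9 Adr1p targets were higher and 1 lower, with the thiolase POT1 at 0.54 ± 0.14, FOX2 at 0.48 ± 0.15 and ADH2 at -0.28 ± 0.09. There 2 of the Cat8p and Sip4p targets, SFC1 (0.48 ± 0.12) and MDH2 (0.35 ± 0.08), and 1 of the Mig1p targets, MAL32 (0.61 ± 0.22), were higher and none lower, where 8.38% of all genes were higher and 9.77% lower.

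**Figure D4:**
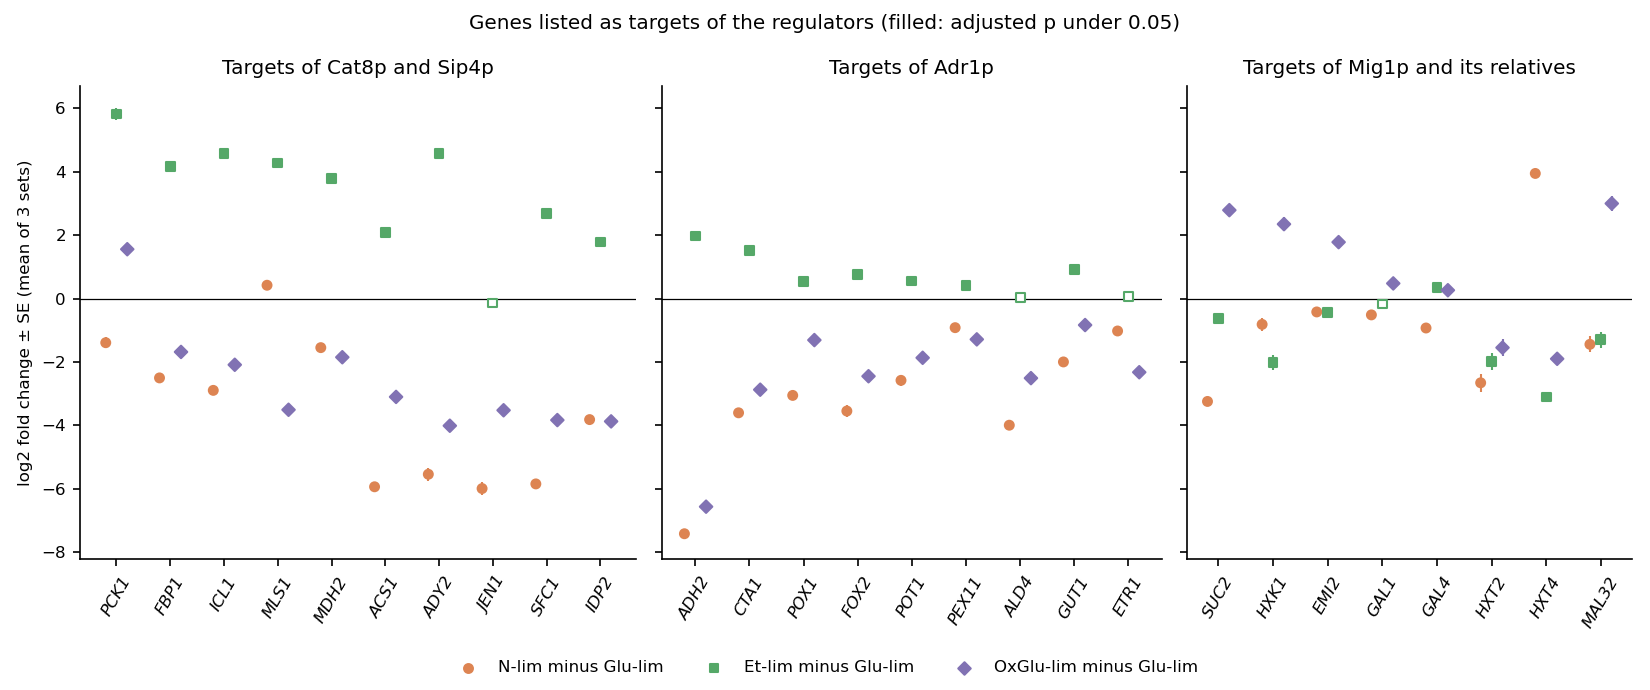
Log2 fold change ± SE (mean of 3 sets) of genes listed as targets of Cat8p and Sip4p, of Adr1p and of Mig1p with its relatives, under N-lim, Et-lim and OxGlu-lim against Glu-lim, with filled points for adjusted p under 0.05. PCK1 reaches 5.82 ± 0.20 under Et-lim, ADH2 -7.42 ± 0.13 under N-lim, and SUC2, HXK1 and MAL32 lie above 0 under OxGlu-lim.

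Genes for partners of the regulators passed in both directions, and their counts stand beside 71.7%, 59.3% and 65.2% of all genes passing under N-lim, Et-lim and OxGlu-lim. Of 7 genes for subunits and upstream kinases of the Snf1p complex, 5 were higher and 1 lower under N-lim, 6 and 1 under Et-lim, and 3 and 1 under OxGlu-lim. SIP2, which encodes a beta subunit of the complex, was lower under N-lim (-1.05 ± 0.08) and OxGlu-lim (-0.76 ± 0.08) and higher under Et-lim (1.41 ± 0.08), while the upstream kinase ELM1 was higher under N-lim (1.24 ± 0.06) and TOS3 under OxGlu-lim (0.99 ± 0.07). Of 6 phosphatase and corepressor partners, 4 were higher and 2 lower under N-lim, 1 and 3 under Et-lim, and 3 and 0 under OxGlu-lim. REG2, the relative of REG1, was 3.20 ± 0.28 higher under Et-lim and 1.43 ± 0.28 higher under OxGlu-lim, and NRG2, the relative of NRG1, was lower under N-lim (-1.14 ± 0.11) and Et-lim (-1.09 ± 0.11). The hexokinase HXK2 was higher under N-lim (0.86 ± 0.07) and OxGlu-lim (0.61 ± 0.07) and lower under Et-lim (-0.50 ± 0.07). Of 6 genes of the glucose-sensing branch that feeds MIG2, 4 were higher and 1 lower under N-lim, 2 and 3 under Et-lim, and 3 and 2 under OxGlu-lim. STD1 and MTH1, which encode corepressors of Rgt1p, were higher under N-lim (2.68 ± 0.09 and 0.97 ± 0.10) and lower under Et-lim (-0.78 ± 0.10 and -1.13 ± 0.10), and MTH1 was higher under OxGlu-lim (0.74 ± 0.10). Of 9 other activators of growth on non-fermentable carbon, 5 were higher and 3 lower under N-lim, 4 and 1 under Et-lim, and 2 and 4 under OxGlu-lim. Among them the zinc cluster gene ERT1 was higher under N-lim (0.66 ± 0.07) and OxGlu-lim (0.85 ± 0.07), the respiratory activator HAP4 was higher under Et-lim (0.64 ± 0.06) and OxGlu-lim (0.59 ± 0.06), and USV1 was lower under N-lim (-1.71 ± 0.21) and OxGlu-lim (-0.50 ± 0.20). In the vessel comparison 0 and 1 of the 7 Snf1p complex genes, 2 and 1 of the 6 phosphatase and corepressor partners, 2 and 1 of the 6 sensing genes and 2 and 0 of the 9 other activators were higher and lower (17.1% and 17.3% of all genes). In the strain comparison the counts were 0 and 0, 0 and 2, 0 and 1, and 1 and 0 (8.38% and 9.77%).

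Over the 12 group means of log2 CPM, the members fell into patterns that are given here as a description, since the groups share sets and limitations. CAT8 and ADR1 correlated at Pearson r = 0.98, SIP4 with ADR1 at 0.90 and with CAT8 at 0.87, and MIG2 with MIG3 at 0.96. MIG1 correlated with SIP4 at -0.94, but with MIG2 at only 0.59 and with MIG3 at 0.60. CAT8 ran against MIG2 at -0.90 and MIG3 at -0.90. Among all genes tested, those most like each member over the 12 groups were GAL3 (0.98) and ADR1 for CAT8, GAL3 (0.99) and CAT8 for ADR1, and SFC1 (0.99) and CTA1 (0.99) for SIP4. BRE1 (0.98) and HXT1 (0.98) were most like MIG2, and HXT1 (0.97) and YBL006W-A (0.96) most like MIG3. For MIG1 they were YOL046C (0.96) and STP4 (0.96), for NRG1 NGL3 (0.95) and NTR2 (0.95), for REG1 PSP1 (0.96) and SIC1 (0.94), for RDS2 MSH4 (0.91) and YDL206W (0.84), and for SNF1 YOR376W-A (0.90) and EFT1 (0.87).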

How the data were processed

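The authors extracted RNA with an RNeasy kit after 48 to 60 h of constant culture readings and made stranded total RNA libraries without ribosomal RNA, per the labels' protocols. Bowtie2, SAMtools and bedtools with genome build R64 are named in the submitters' processing notes, without versions. How reads were assigned to genes, and whether by strand, is not given in the sources used here. The deposited values used are whole-number read counts per gene, per the file headers. The 60 other columns of values were not used, and 4 lines per table were not analysed here. RefSeq locus tags matched 6045 of 7122 lines and all 10 members. No RefSeq gene overlaps a member, but 678 nuclear reading frames have no RefSeq entry and were not checked for overlap.

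Counts were fitted with edgeR 4.0.16 (R 4.3.3): 1 mean per group, 36 libraries, TMM factors, the default filter on low counts, the quasi-likelihood F test on 24 residual degrees of freedom, and Benjamini-Hochberg adjustment over 6612 genes, with 0.05 as the threshold. Fold changes are log2 with standard errors (SE). CPM is a count over the TMM-scaled library size, times 1000000. Replicates of a group always differed beyond counting noise. The members and lists were chosen with earlier results of these data known; every member is named, with the 2 genes most like it, and list genes are named from the 4 called ones of largest change per comparison, except where said. Alternatives were DESeq2 1.42.0, other size factors and filters, fewer libraries, a replicate block and each library left out.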

Additional observations from a re-analysis of the deposited data

Results flagged for a closer look

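For 5 members the difference between MC tagged and DASGIP tagged cultures varied with limitation in a joint edgeR test of that interaction. F was 36.6 for SIP4, 22.9979 for ADR1 and 10.6 for CAT8, which were higher in MC tagged cultures under N-lim and not under Et-lim or Glu-lim. SIP4 and ADR1 were also higher under OxGlu-lim, and SIP4 and CAT8 lower under Glu-lim. F was 5.09 for MIG2 (adjusted p = 0.031), with 0.54 ± 0.16 log2 under OxGlu-lim as its 1 called value. That F test was lost without MC tagged N-lim replicate 2, OxGlu-lim replicate 2 of either tagged set or DASGIP tagged OxGlu-lim replicate 3 (adjusted p = 0.0533 to 0.118), and in a fit of the tagged libraries alone (0.08). F was 4.52 for MIG3 (adjusted p = 0.0442), lost without any 1 of 21 of the 36 libraries (0.0501 to 0.0922).

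For 8 members the difference between MC tagged and MC untagged cultures varied with limitation. F was 37.4 for SIP4, which was higher in MC tagged cultures under N-lim and OxGlu-lim and lower under Glu-lim. F was 34.8 for MIG3 and 27.2 for MIG2, both lower in MC tagged cultures under N-lim, with values of 0.60 ± 0.24 and -0.39 ± 0.16 under OxGlu-lim that did not pass. F was 9.00027 for CAT8, 8.39 for ADR1 and 6.04 for RDS2, whose called differences were higher ones under N-lim. F was 11.5 for SNF1 and 7.74 for REG1, both lower in MC tagged cultures under Glu-lim. SNF1 was higher in MC tagged cultures under OxGlu-lim (0.19 ± 0.06 log2, adjusted p = 0.0268; lost without any 1 of 4 libraries, 0.0732 to 0.122). All 8 passed under each alternative run.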

How the results depend on the processing

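In 43 alternatives no member changed direction while called before or after. Of 150 called member results, 120 kept their call in every alternative, and of 120 not called, 91 stayed so. Among the 21 calls of the limitation averages against Glu-lim, 19 held throughout; ADR1 and MIG3 under OxGlu-lim did not. The number of genes for which the vessel difference varied with limitation was 1593 in the model of all libraries and 1043 in a fit of the tagged libraries alone, which has fewer samples; no other of the 7 gene counts of averages and joint tests moved by over 1.5 times. Of the 20 further counts behind the shares of all genes, the 12 within single sets or between other limitations did not either. The 8 for vessel or strain within 1 limitation did: over all alternatives they ran, under N-lim, Et-lim, OxGlu-lim and Glu-lim in turn, 287 to 1391 (from 1211), 422 to 986 (from 782), 391 to 1341 (from 1166) and 838 to 1875 (from 1397) for the vessel, and 1212 to 2303 (from 2144), 12 to 94 (from 18), 871 to 1903 (from 1592) and 858 to 2106 (from 1491) for the strain. For the strain under Et-lim alone edgeR called 18 genes and DESeq2 94, with no member among either. Leaving out 1 library gave, against Glu-lim, 4628 to 4813 genes under N-lim, 3754 to 3995 under Et-lim and 4174 to 4394 under OxGlu-lim. It gave 2109 to 2422 for the vessel, 927 to 1395 for the strain, 1265 to 2027 for the vessel by limitation and 2772 to 3502 for the strain by limitation.

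Whether replicate numbers pair the cultures was not settled. In 0 of 30 pairs of groups did every same-numbered pair correlate over 0.1, a rule that weak pairing would fail. The mean same-number correlation ran from -0.14 (MC tagged with DASGIP tagged OxGlu-lim) to 0.15 (DASGIP tagged Et-lim with OxGlu-lim). Within the sets 20 of 36 libraries correlated best with their own number, and that count was not tested against chance, so some pairing remains possible. A fit with a replicate block called 4728 genes under N-lim, 3910 under Et-lim and 4300 under OxGlu-lim, each against Glu-lim, 2289 for the vessel, 1159 for the strain, and 1527 and 3135 for their variation with limitation. MIG3 had the fewest counts, down to 35 in 1 library, and the SE of its Et-lim difference from Glu-lim was 0.14 log2, against 0.04 for SNF1.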
